A study of Mus musculus with 15 samples.

Results

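Of 206367 peaks of open chromatin in mouse embryonic fibroblasts (MEFs, connective tissue cells grown from embryos), 790 (0.383%) were more accessible after an Ezh2 inhibitor and not after activation of Fra2. Accessibility was measured by Omni-ATAC-seq, which uses a transposase to cut and tag DNA that is not covered by nucleosomes. Levels are CPM (counts per M reads in peaks of the library, M for mega), and a group's CPM pools its 3 libraries. A peak belonged to the set when its CPM in the inhibitor group was at least 3 and at least 1.5 times that of the early control. Its CPM with Fra2 activation had also to be at most 1.1 times that of the control of the same time, early and late. The rule read the counts of all 5 groups, so the ratios that define the set are a description and carry no test.

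All cells were labelled MEFs of a C57/B16 background. The early and late controls received scrambled guides, and the early and late Fra2 cells received guides for Fosl2, which encodes Fra2, so that the VPR activator was brought to that gene. These 12 libraries came from cells sorted for the mCherry reporter of the CRISPRa-VPR construct and for the surface protein THY1, per the labels. The inhibitor cells received 4 µM GSK343 for 3 days and a washout day. Whether these cells carried the construct or were sorted is not stated in the labels. The S numbers that end their titles form a run apart from those of the other 12 libraries, early control 3 among them. What these numbers stand for is not stated, and a batch, if there was one, cannot be told apart from the inhibitor. Sample labels give day 3 for early and day 10 for late cells, but day 4 for the 3 inhibitor libraries and for early control 3, and the series text gives each time a day later. Nothing states that the 3 libraries of a group came from separate cultures, and the errors and tests below measure only the spread between libraries, which may be technical.

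Libraries held between 6.75 M and 25.3 M reads in peaks. Early control 3 was the shallowest, at 6.75 M, against 19.4 M and 14 M for early controls 1 and 2 and 21.6 M to 25.3 M for the inhibitor libraries. All 10 fibroblast marker genes had a peak in or within 1 kb of the gene, and the median of their highest early control CPM was 14.9. Endothelial (median 7.62), neuronal (10.8) and macrophage and immune markers (9.43) also had peaks, while Krt18, Adgre1, Nkx2-5, Nanog and Zfp42 had none. The medians were 3.7 for epithelial and 3.29 for skeletal and cardiac muscle markers. Open chromatin at a gene does not show that the gene is expressed. In bulk libraries, more cells with an open site and more openness per cell cannot be told apart.

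Ezh2 is the catalytic subunit of Polycomb repressive complex 2, which methylates histone H3 to give H3K27me3, a mark of silenced developmental genes such as the Hox clusters. GSK343 competes with the methyl donor of the enzyme. Fra2 pairs with Jun proteins to form AP-1, a factor that binds enhancers widely in fibroblasts and takes part in opening them. The methylation mark itself was not analysed here.

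Sequence could be shown for the few members that lie on a listed promoter. RefSeq windows of GRCm38.p6 (the assembly also called mm10) run from 250 bases before to 50 after a gene start, and 7 of 32851 were covered by a member over at least 150 bases. Hgfac, Tfr2 and Ikbkg are the 3 protein-coding genes among them. They are shown because gene starts were scarce in the set, and they let a reader see what such a start looks like. The 250 bases upstream of each start follow, 5′ to 3′ on the plus strand. Capitals mark the AP-1 letters TGANTCA and the GC box letters GGGCGG on either strand.
Hgfac, chr5:35041259-35041508: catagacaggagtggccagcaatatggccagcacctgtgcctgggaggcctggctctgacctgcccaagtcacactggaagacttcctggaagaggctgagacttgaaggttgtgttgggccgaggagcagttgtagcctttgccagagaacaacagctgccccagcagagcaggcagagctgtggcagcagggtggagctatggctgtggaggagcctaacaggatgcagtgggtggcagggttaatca
Tfr2, chr5:137569590-137569839: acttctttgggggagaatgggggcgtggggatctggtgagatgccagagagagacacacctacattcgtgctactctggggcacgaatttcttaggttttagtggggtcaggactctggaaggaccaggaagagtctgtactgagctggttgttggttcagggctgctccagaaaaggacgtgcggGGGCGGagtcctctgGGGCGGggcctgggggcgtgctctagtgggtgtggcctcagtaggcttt
Ikbkg, chrX:74424362-74424611: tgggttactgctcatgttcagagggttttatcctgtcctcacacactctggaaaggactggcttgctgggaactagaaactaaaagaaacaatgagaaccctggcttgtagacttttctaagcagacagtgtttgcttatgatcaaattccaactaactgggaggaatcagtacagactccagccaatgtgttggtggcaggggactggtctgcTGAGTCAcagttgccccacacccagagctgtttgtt
Hgfac encodes the protease that activates hepatocyte growth factor, Tfr2 encodes transferrin receptor 2, and Ikbkg encodes NEMO, the regulatory subunit of the kinase that activates NF-kB. Over the full windows of 300 bases, the Hgfac window held 2 CpG dinucleotides, the Tfr2 window 8 and the Ikbkg window 0. The median GC content of the 7 windows was 46.0%, against 61.3% for the 13634 windows covered by any peak. A GC box stood in 1 of the 7 (Tfr2, 2 copies) and in 63.0% of windows covered by any peak. The AP-1 letters stood in 1 of the 7 (Ikbkg) and in 7.17% of the latter. Matches in windows of this length describe the letters alone, and 7 windows are too few for a comparison. No genome sequence was used here for the other members.

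MicroRNA genes lay within 10 kb of 13 members. The same count over all peaks was not made, so nothing is read from this number. The mature sequences of 3 of these loci are shown as examples, with the seed (bases 2 to 8) in capitals. They are not the nearest in every case. Mir3544, Mir337 and Mir665, not shown, lay 0.254, 0.26 and 0.263 kb from the centre of the member that holds Mir540. Mir6999, also not shown, lay 2.28 kb from another member.
miR-29a-3p: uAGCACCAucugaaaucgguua
miR-29b-3p: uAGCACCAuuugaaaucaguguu
miR-22-3p: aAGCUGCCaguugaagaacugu
miR-540-3p: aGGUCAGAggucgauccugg
The miR-29 pair shares the seed AGCACCA and is known to target collagen and other matrix transcripts. Their hairpins (Mir29a and Mir29b-1) lay 1.31 and 1.67 kb from the centre of a member at chr6:31061139-31061640. That of Mir22 lay 3.52 kb from a member at chr11:75467028-75467529, and the hairpin of Mir540 lay wholly within a member at chr12:109585847-109586348, inside Rtl1, a gene of an imprinted cluster. The libraries measure DNA accessibility and not the microRNAs themselves.

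The members were weak to moderate peaks with small differences. Across the set the inhibitor to early control ratio ran from 1.5 to 2.33 with a median of 1.59, and 423 members (53.5%) lay below 1.6. Only 21 reached 2. The median member held 99 reads over the 3 early control libraries together and 277.5 over the 3 inhibitor libraries. The median member CPM was 2.42, 2.43 and 2.96 in early controls 1 to 3 and 3.97, 4.02 and 4.11 in inhibitor libraries 1 to 3. It was 2.03, 2.29 and 2.50 in early Fra2 libraries, 2.94, 2.66 and 2.65 in late controls and 2.31, 2.50 and 2.62 in late Fra2 libraries. The inhibitor libraries thus stood closest together and highest, and early control 3 stood above the other early controls. The latter was not particular to members, since the median CPM over all peaks was 3.04, 3.15 and 3.85 in early controls 1 to 3. Early control 3 was the highest early control at 51.6% of members, 48.5% of all peaks and 33.3% of peaks with an inhibitor CPM of at least 3.

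At the limit itself, the member at Asb1 (chr1:91600615-91601116) had 11.9 CPM in early control and 17.9 with the inhibitor, a ratio of 1.5001, and the member at Wdr25 (chr12:108895952-108896453) the same ratio from 2.82 and 4.23. Just outside, a peak in Zfpm1 reached 1.4999 (3.37 and 5.05 CPM) and one in Arhgef18 1.4998 (3.91 and 5.87 CPM). Values on the 2 sides of the limit cannot be told apart.

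The rule passed few of the peaks that the inhibitor limits alone would give. Of 5937 peaks that met them, 4594 failed the early Fra2 limit, 4474 the late limit and 3921 both, which left 790 (13.3%). The median ratio of members to their control was 0.913 for early Fra2 and 0.924 for late Fra2, values the rule capped. The lowest early Fra2 ratio was 0.411, at a member in Cdkn1a described below.

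**Figure D1:**
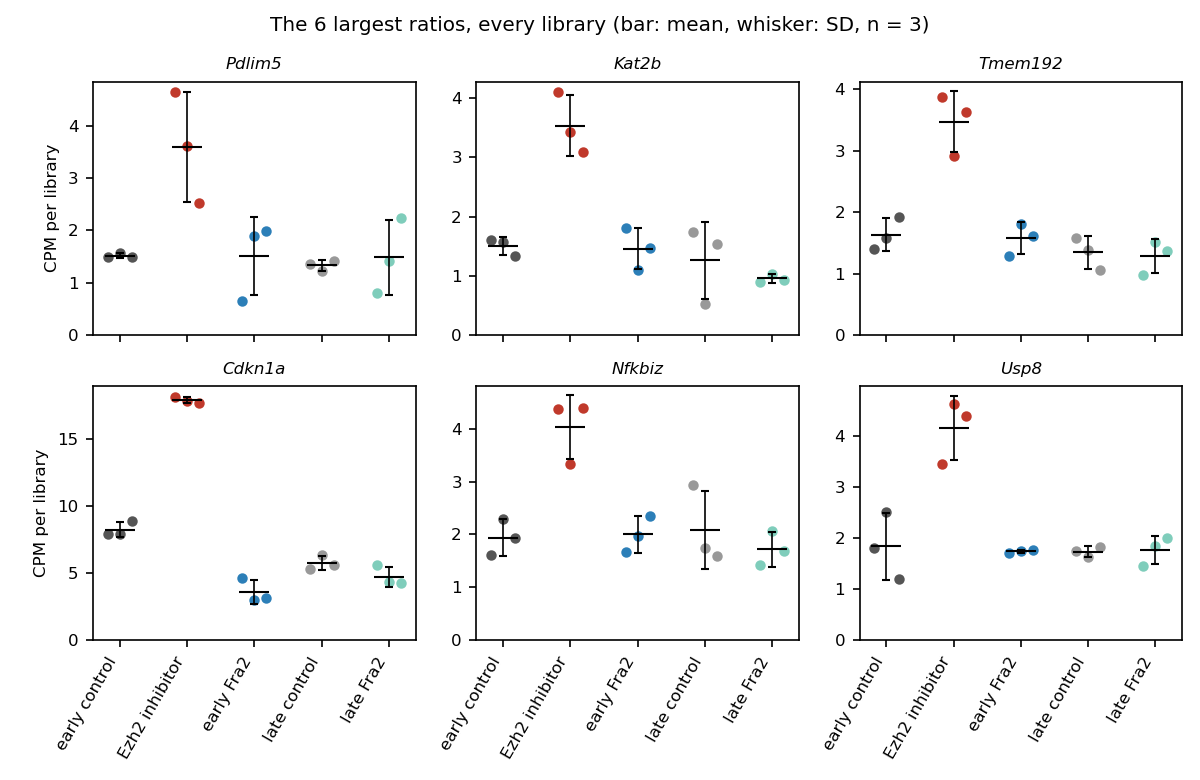
CPM of every library (vertical axes, linear from 0) in the 5 groups (horizontal axes) for the 6 members with the largest ratio among those whose inhibitor libraries all lie above every early control library. Points are libraries, bars the mean and whiskers the SD of 3. Cdkn1a, with 17.7 to 18.1 CPM after the inhibitor, is the only peak of the 6 above 6 CPM.

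The plot of the 6 largest separated ratios shows how the set looks at its upper end. The largest belonged to a peak in Pdlim5, a scaffold of the actin cytoskeleton (chr3:142290185-142290686, gene body). It had 1.5, 1.58 and 1.48 CPM in the early controls and 4.64, 3.61 and 2.53 in the inhibitor libraries, a ratio of 2.33 (log2 fold change 1.20 ± 0.34, SE). Its inhibitor libraries spread widely but did not overlap the controls. A peak in Kat2b, which encodes a histone acetyltransferase (chr17:53650328-53650829), had 1.6, 1.58 and 1.33 CPM against 4.10, 3.42 and 3.08. A peak 2.58 kb beyond the end of Lats1, a kinase of the Hippo pathway (chr10:7718786-7719287), had 2.32, 2.22 and 2.22 CPM against 3.43, 5.6 and 5.38. Its late controls, at 3.77, 2.26 and 3.06, overlapped the inhibitor range. Among the 12 largest were also peaks at Tmem192, Nfkbiz, Usp8, Adamts17, Cacna2d1 and Gpt2, with ratios of 2.09 to 2.26. Nfkbiz encodes a regulator of NF-kB that is induced in inflammation, Usp8 a deubiquitinase and Adamts17 a metalloprotease of the ADAMTS family. Another was a peak on chromosome 1 with no protein-coding gene within 100 kb.

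Among these 12, the highest level by far lay at the 3′ end of Cdkn1a, the gene of the cell cycle inhibitor p21 and a classic target of p53. The member at chr17:29100543-29101044, centred 0.071 kb beyond the annotated gene end, had 7.89, 7.88 and 8.89 CPM in early controls and 18.1, 17.8 and 17.7 in inhibitor libraries. The ratio was 2.22 and the log2 fold change 1.1 ± 0.15 (SE). The 2 groups were far apart and each was tight. It had 4.58, 3.00 and 3.09 CPM with early Fra2, 5.28, 6.31 and 5.6 in late controls and 5.55, 4.29 and 4.23 with late Fra2. The inhibitor libraries were therefore 3.10 times the late control, and early Fra2 0.464 times the early control. A second member beside it, at chr17:29099963-29100464, had 5.16, 6.59 and 5.63 CPM against 9.05, 10.6 and 11.6, a ratio of 1.83.

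The other peaks of Cdkn1a were, on the whole, level with the controls. Its 17 non-members had a median inhibitor ratio of 0.987, and their summed CPM was 134 ± 6.22 in early controls and 132 ± 4.11 in inhibitor libraries (SD, n = 3). The summed CPM of the 2 members was 14 ± 0.83 and 28.3 ± 1.08. Counted from the first listed start, the ratios of the 4 peaks before the members were 1.26, 1.06, 1.15 and 1.51 at 5.50, 6.52, 7.91 and 8.51 kb. The last of these missed the rule through the late Fra2 limit, at 1.18. Of the 4 peaks at gene starts, those at the first start had 1.26 and 1.19, and those at 2.74 and 3.45 kb had 0.971 and 0.920.

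**Figure D2:**
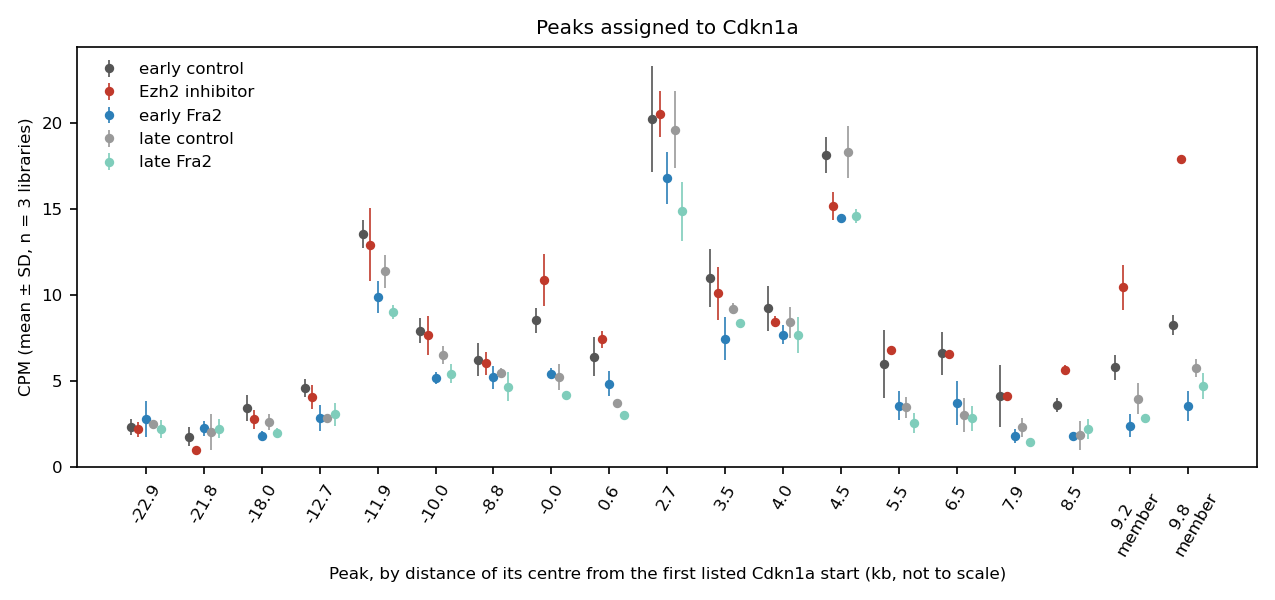
CPM (vertical axis, linear from 0; points are means and lines the SD of 3 libraries) at the 19 peaks assigned to Cdkn1a, ordered along the horizontal axis by distance from the first listed start in kb and not to scale. The 2 members, at 9.2 and 9.8 kb, are the peaks where inhibitor values stand farthest above the other groups.

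Btg2, an antiproliferative gene that p53 also activates, had a similar profile. Its member lay 1.36 kb beyond the gene end (chr1:134073255-134073756) and had 7.94, 7.52 and 5.04 CPM in early controls and 13.6, 11.1 and 12 with the inhibitor. Late controls were at 4.30, 3.82 and 4.95 and early Fra2 libraries at 4.58, 5.37 and 3.53, so the inhibitor libraries stood above all 4 other groups. Sesn1 and Sesn2, stress sensors induced by p53, had 1 member each with ratios of 1.6 and 1.62. At Sesn1 the groups were separate, with 2.94, 2.22 and 2.96 CPM in early controls against 3.48, 3.75 and 5.50. The list of cell cycle inhibitors and p53 targets held 5 members among 401 peaks (1.25%), against 0.383% of all peaks. Its median log2 fold change over all its peaks was −0.03, beside −0.00085 for all peaks, so the members did not stand for the list as a whole.

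Members at genes known to be bound by Polycomb were counted beside the 0.383% of all peaks, and with lists of this size the counts differ from that share by few peaks. The list of Polycomb-bound developmental regulators had 3 members among 1330 peaks (0.226%), at Gata3, Lhx8 and Barx1, transcription factors of T cell and trophoblast, forebrain and stomach development. The median log2 fold change of its peaks was −0.08. The Gata3 member, inside the gene, had 1.29, 1.65 and 3.41 CPM in early controls against 2.41, 3.70 and 3.16, so the groups overlapped. The Lhx8 and Barx1 members lay 34.5 and 27.8 kb from the gene. At Barx1 the groups were separate, with 2.48, 3.01 and 2.07 CPM against 4.46, 3.52 and 3.88. The Hox clusters had 0 members among 310 peaks (median −0.13). The subunits of the Polycomb complexes had 1 among 494, in Jarid2, which recruits the complex, with 4.64, 3.58 and 4.15 CPM against 5.31, 6.75 and 7.24. H3K27 demethylases and trithorax genes had 1 among 274, in Arid1b. The AP-1 family had 0 among 425 peaks (median −0.13).

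Among other lists, myofibroblast and contractile genes held 8 members among 981 peaks (0.815%), of which Myh9, the heavy chain of nonmuscle myosin, held 4. Another 2 lay beside the filamin A gene Flna, 1 lay in Mrtfa, a cofactor that senses actin, and 1 lay 76.6 kb from the integrin gene Itgb1. The leading Myh9 member (chr15:77774953-77775454) had 3.25, 2.36 and 2.07 CPM in early controls against 4.59, 5.09 and 5.10. Late controls, at 4.37, 3.24 and 3.36, lay below the inhibitor libraries and overlapped the early controls. Fibroblast identity and matrix genes had 3 among 1309 peaks (0.229%). These were 2 peaks just beyond the end of Sparc, a matrix glycoprotein, with ratios of 1.54 and 1.52, and a peak 2.20 kb from Thy1, the surface protein used in the sort, at 1.91. TGF-beta and BMP genes had 1 of 989 (Bmp6), Wnt genes 3 of 931 (at Fzd1 and Ror1, which encode Wnt receptors, and Sfrp4, a secreted antagonist), chondrogenic and osteogenic genes 1 of 508 (Col9a1) and adipogenic genes 3 of 510 (Gata3, Klf4 and Prdm16). Neuronal genes had 3 of 757, skeletal and cardiac muscle genes 2 of 201 (both at Ryr1), and the endothelial, pluripotency, imprinted, interferon and ribosomal lists 1 each. Hedgehog, Notch, FGF and retinoid genes (896 peaks), epithelial genes (267) and macrophage and immune genes (134) had 0. Over all 22 lists 37 members lay nearest a listed gene, and most of the set lay at genes on no list.

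Most genes with a member had only 1. The members fell at 663 genes, of which 614 held 1, 41 held 2 and 8 held at least 3. Members up to 20 kb apart formed 29 runs with 72 members, and 4 runs had at least 3. The longest covered 61.4 kb of the 3′ part of Fbln2 and beyond (chr6:91234493-91295934). Fbln2 encodes fibulin-2, an extracellular matrix protein of fibroblasts, and 12 of its 90 peaks were members.

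**Figure D3:**
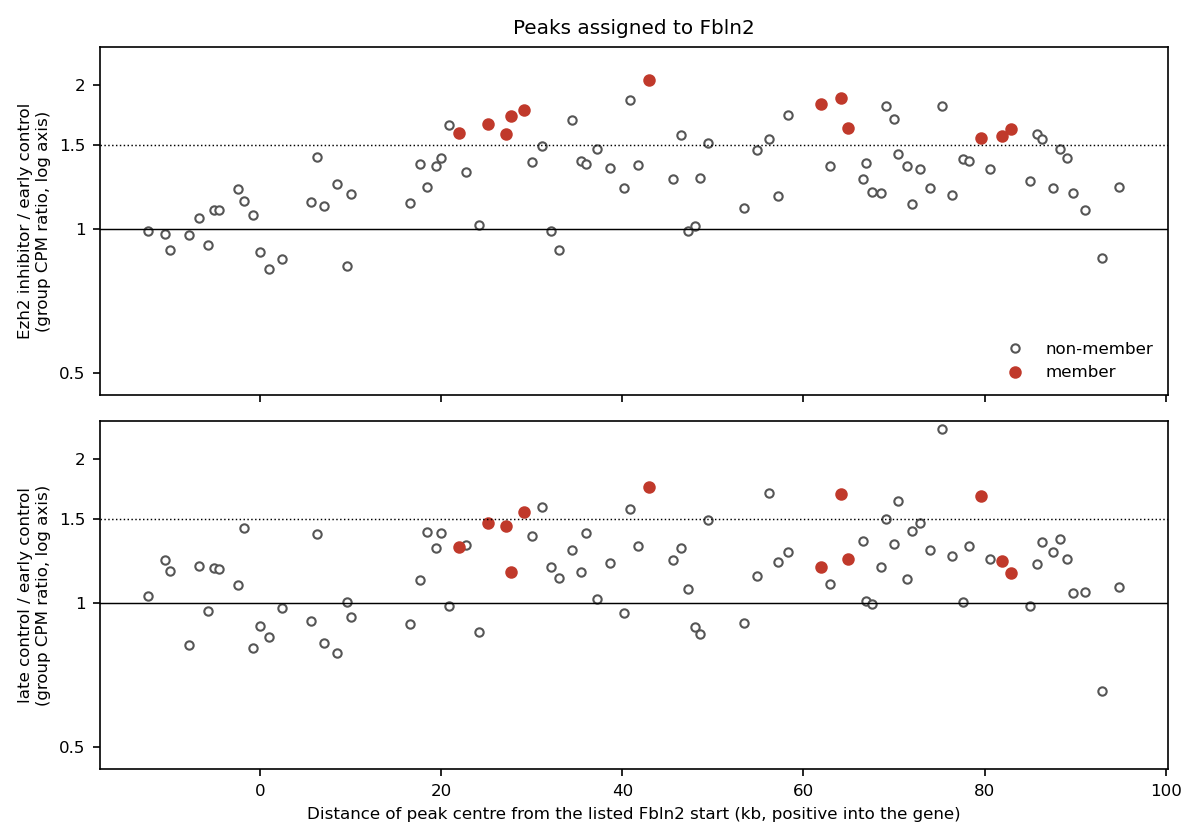
Group CPM ratio (vertical axes, log scale) of inhibitor to early control (top) and late to early control (bottom) at the 90 peaks assigned to Fbln2, by distance from the listed start in kb. Filled points are the 12 members, open points the other peaks, and the dotted line marks 1.5. Members and other peaks beyond 20 kb lie mostly above 1 in both panels.

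Across Fbln2 the ratio depended on place, as the plot of ratio by distance shows. The median inhibitor ratio was 0.989 for the 9 peaks 20 to 2 kb upstream of the listed start, 0.985 for 4 peaks around it, 1.20 for 12 peaks from 2 to 20 kb, 1.43 for 32 peaks from 20 to 60 kb and 1.37 for 33 peaks from 60 to 100 kb. The medians of late to early control, which share the early controls, were 1.16, 0.871, 0.989, 1.25 and 1.24 in the same bins. The summed CPM of the 12 members was 26.4, 23.4 and 49.6 in early controls 1 to 3 and 47.8, 51.4 and 48.7 in inhibitor libraries. Early control 3 thus lay within the inhibitor range here, and at 9 of the 12 members it lay at or above the lowest of them. The members' median ratio was 1.95 without early control 3 and 0.995 against early control 3 alone. The Fbln2 run therefore rests on early controls 1 and 2. Early control 3 is the shallowest library and shares its day label with the inhibitor libraries, and the part of either in this result was not tested. The leading Fbln2 member (chr6:91255519-91256020) had 1.24, 1.22 and 2.96 CPM in early controls against 3.75, 3.33 and 2.37, so that early control 3 overlapped the inhibitor range.

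The other 3 runs, unlike Fbln2, were above early control 3 alone, with median member ratios of 1.77 (3 of the 4 members beside miR-29), 1.3 (Neat1) and 1.46 (Kdm5b). Beside the miR-29 hairpins, 4 members lay among 20 peaks within 15.4 kb (chr6:31046259-31061640), and all 16 non-members there had a ratio above 1 (median 1.40). The highest member of the whole set lay there, at chr6:31050805-31051306, with 15.4, 13.3 and 10.2 CPM in early controls and 22.7, 22.9 and 19.8 with the inhibitor. Its late controls, at 19.4, 27.5 and 18.8, were as high. On chromosome 19, 3 members among 8 peaks (chr19:5818626-5824422) lay 0.537 to 5.83 kb from Neat1, the long noncoding RNA that builds paraspeckles. Their summed CPM was 19.4, 15.4 and 22.7 in early controls and 30.2, 27.2 and 31.0 with the inhibitor. Beside Kdm5b, a demethylase of histone H3 lysine 4, 3 of 4 peaks were members (chr1:134636061-134638496), with a summed CPM of 11.6, 11.7 and 13.3 against 20.6, 20.5 and 21.5. The 3 miR-29 members assigned to Klf14 summed to 25.9, 23.8 and 19.4 CPM against 37.5, 38.7 and 36.4. In these 3 sums every inhibitor library exceeded every early control library. Late controls summed to 21.3, 31.7 and 26.7 CPM at Neat1 and to 33.1, 42.2 and 30.9 at the miR-29 members, which overlapped the inhibitor libraries. At Kdm5b the late controls, at 16.9, 14.6 and 15.4 CPM, lay below the inhibitor libraries. These loci were picked by the number of members, after their values were seen.

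Compared with early control, edgeR's quasi-likelihood test over all peaks called 50 members higher and 0 lower at an adjusted p under 0.05, beside 0.552% of all peaks called higher and 0.341% lower. The rule used this contrast, so the count only shows that most members were not called peak by peak. At an unadjusted p under 0.05 it held 710 members higher and 0 lower, beside 15506 and 14736 of the 206349 peaks tested, and nothing is read from it. The count of 50 at an adjusted p under 0.05 moved with single libraries, from 2 without inhibitor library 3 to 166 without early control 3. It was 5 without inhibitor library 1 or early control 2, 6 without inhibitor library 2 and 60 without early control 1. In 584 members (73.9%) every inhibitor library lay above every early control library, beside 11.9% of all peaks. Against early control 3 alone the median member ratio was 1.47 and 365 members reached 1.5, while against early controls 1 and 2 together it was 1.66 and 681 did. Of all peaks, 13.5% reached 1.5 against early control 3 and 9.89% against early controls 1 and 2, and at the level limit 17.2% and 6.57% did.

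The values against late control are a description too, since the rule used both inhibitor and late control counts. The inhibitor to late control ratio of members had a median of 1.49, and 374 (47.3%) reached 1.5, beside 10.7% of all peaks and 39.5% of the other peaks within the inhibitor limits. In 524 members every inhibitor library lay above every late control library (18.5% of all peaks), and the test called 193 higher (3.61% of all peaks) and 0 lower (3.68%; 1 at an unadjusted p under 0.05, and 0 with DESeq2). The called count was 115 without inhibitor library 1, 96 without inhibitor library 2, 73 without inhibitor library 3, 76 without late control 2 and 96 without late control 3. The largest ratio to late control, 3.38, belonged to a peak in Ptdss1, a gene of phosphatidylserine synthesis (chr13:66962025-66962526). It had 2.27, 2.86 and 1.78 CPM in early controls, 3.75, 4.76 and 4.31 with the inhibitor and 1.43, 0.983 and 1.41 in late controls. Its inhibitor libraries stood apart from both controls, and its late controls were below its early controls, as at Cdkn1a and Btg2. Of 790 members, 776 (98.2%) had more inhibitor than late control CPM, beside 56.6% of all peaks and 91.0% of the other peaks within the inhibitor limits.

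Late controls lay somewhat above early controls at most members. The late to early control ratio had a median of 1.1, against 0.982 over all peaks. It was above 1 at 528 members (66.8%), beside 46.9% of all peaks and 47.3% of peaks at the level limit. At 32 members it reached 1.5, beside 4.96% of all peaks and 3.38% of peaks at the level limit. In 69 members every late control library lay above every early one (8.94% of all peaks). The test called 13 higher, beside 2.04% of all peaks, and 1 lower, beside 1.24%. The calls in both directions came to 4 without late control 2 and 8 without early control 2. Among the 5147 peaks within the inhibitor limits that the Fra2 limits removed, 18.8% reached 1.5 in late against early control, beside 4.05% of members. The early Fra2 limit divides by the same early control counts, and the late limit by the late control counts, so this split is not independent of the ratio. The 32 members at 1.5 or more included 2 beside the miR-29 hairpins and 1 at Dbn1, an actin-binding protein gene. The Dbn1 member had 8.10, 9.17 and 5.63 CPM in early controls, 13.4, 12.5 and 10.9 with the inhibitor and 12.8, 14.3 and 12.4 in late controls. The Fra2 contrasts, which the rule capped, called 23 members lower with early Fra2 (4.91% of all peaks) and 17 with late Fra2 (3.54%). They called 0 higher, beside 10.1% of all peaks with early and 6.45% with late Fra2, and 0 also at an unadjusted p under 0.05, beside 34422 and 29626 of all peaks. The limit of 1.1 in the rule left little room for such a call.

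**Figure D4:**
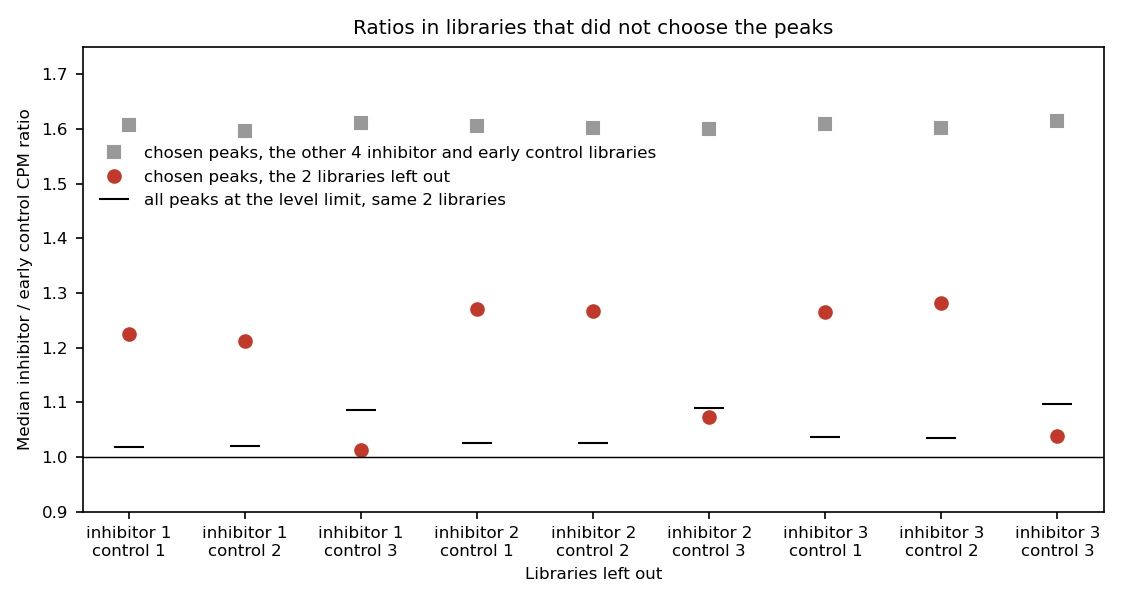
Median ratio of inhibitor to early control CPM (vertical axis) when 1 inhibitor and 1 early control library (horizontal axis) did not choose the peaks. Squares give the 4 other libraries of the 2 groups, circles the 2 libraries left out at the same peaks, and dashes those 2 libraries at all peaks at the level limit. Circles lie at 1.21 to 1.28 with early control 1 or 2 left out and at 1.01 to 1.07 with early control 3.

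The size of the difference was smaller in libraries that had no part in the choice. When 1 inhibitor and 1 early control library were set aside and the rule was applied to the other 13, the chosen peaks (992 to 1533, of which 353 to 530 were members) had a median ratio of 1.6 to 1.62 in the libraries that chose them. In the pair set aside, the median was 1.21 to 1.28 over the 6 pairs with early control 1 or 2, against 1.02 to 1.04 for all peaks at the level limit in the same pairs. Over the 3 pairs with early control 3 it was 1.01 to 1.07, below the 1.09 to 1.1 of all such peaks. The share of chosen peaks at 1.5 or more in the pair set aside was 20.7% to 29.2% with early controls 1 and 2, against 8.55% to 10.8% of all peaks at the level limit. With early control 3 it was 15.6%, 21.6% and 17.9%, against 17.1%, 17.3% and 17.9%. Setting aside any 1 of the 15 libraries left between 673 and 1156 peaks, and kept 50.1% (without early control 1) to 94.3% (without late Fra2 library 3) of members. A single left-out inhibitor library had a median ratio of 1.38 to 1.46 to the early controls that helped choose the peaks.

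**Figure D5:**
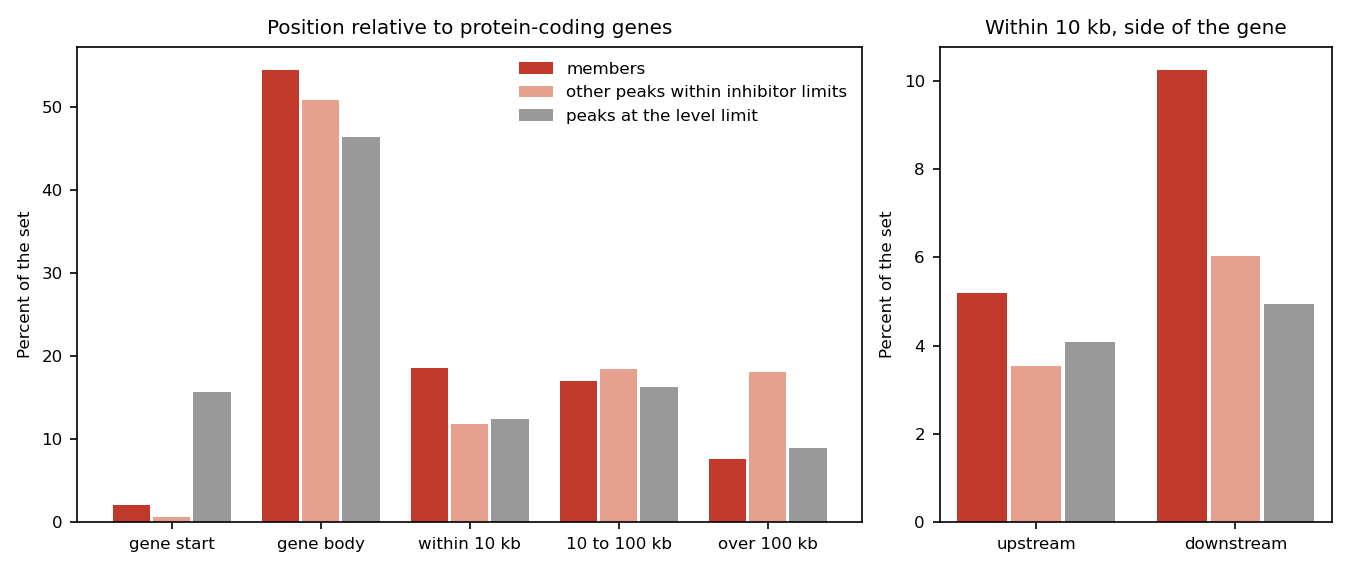
Percent of each set (vertical axes, bars from 0) by position relative to protein-coding genes (left) and by side of the gene for peaks outside genes and within 10 kb (right). Members were at gene starts in 2.15% and downstream of a gene within 10 kb in 10.3%, against 15.7% and 4.94% of peaks at the level limit. The other peaks within the inhibitor limits had 0.661% and 6.02%. Peaks whose gene has no listed strand are in neither bar on the right.

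The rule did not use position. Members are set here beside all peaks that met the level limit, a set with no upper bound and therefore not matched on level, and beside the other peaks within the inhibitor limits. Only 17 members (2.15%) lay within 1 kb of a listed gene start, against 15.7% of the 117658 peaks with an inhibitor CPM of at least 3 and 0.661% of the other peaks within the inhibitor limits. Gene bodies held 431 members (54.6%, against 46.4% of peaks at the level limit and 50.9% of the other peaks within the inhibitor limits). Outside genes but within 10 kb lay 147 (18.6%, against 12.5% and 11.9%). More than 100 kb from a gene lay 60 members (7.59%), against 8.97% of peaks at the level limit and 18.1% of the other peaks within the inhibitor limits. Downstream of a gene and within 10 kb lay 81 members (10.3%), against 4.94% of peaks at the level limit and 6.02% of the other peaks within the inhibitor limits. The members upstream at that distance numbered 41 (5.19%, against 4.09% and 3.54%). A side needs a listed strand, and these percentages are of whole sets. It could be given for 122 of the 147 members at that distance. The same held for 10625 of 14725 peaks at the level limit and 492 of 612 other peaks within the inhibitor limits. Of the peaks on either side at that distance, 66.4% of members lay downstream, against 54.7% of peaks at the level limit. The other peaks within the inhibitor limits had 63.0%, so this lean was not particular to members. Cdkn1a, Btg2, Sparc and Lats1 are examples of the downstream group. With gene bodies cut into 5 equal parts from the 5′ end, the parts held 16.0%, 16.6%, 22.9%, 21.7% and 22.9% of the 332 members with a usable strand, against 22.5%, 20.1%, 18.8%, 18.8% and 19.7% of peaks at the level limit. The other peaks within the inhibitor limits had nearly the members' profile, with 16.8%, 18.4%, 20.7%, 22.6% and 21.5%. Start positions were listed for 17492 of 21900 protein-coding genes, so some starts count as gene bodies. These shares have no test.

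Among the 17 at gene starts, the largest ratio was 2.02, at Ankrd23, a muscle ankyrin repeat gene (chr1:36535917-36536418), with 2.79, 3.08 and 5.78 CPM in early controls against 6.47, 6.80 and 7.2. Early control 3 was again the highest control. Vwa3a followed at 2.01, with 1.86, 1.5 and 3.41 CPM against 4.15, 4.30 and 3.64. At Hgfac the values were 2.22, 2.58 and 4.59 against 4.77, 4.72 and 4.86, at Tfr2 2.42, 2.65 and 5.78 against 4.50, 3.79 and 5.85, and at Ikbkg 3.04, 3.37 and 4.44 against 4.68, 5.97 and 4.83. The Ikbkg member also overlaps G6pdx. The inhibitor range overlapped the early controls at Tfr2. It lay only just above early control 3 at Vwa3a (3.64 against 3.41 CPM), Hgfac (4.72 against 4.59) and Ikbkg (4.68 against 4.44). These gaps are smaller than 3 counts in early control 3, which are 0.444 CPM, so no separation is read from them. The late controls at Hgfac had 4.37, 4.57 and 3.48 CPM. Satb1, a chromatin organizer (1.69), Fbxw10 (1.7), Gm29797 (1.81), Tmem33 (1.61) and Mov10, an RNA helicase (1.59), were among the other starts. The inhibitor range overlapped the early controls at Satb1 and lay only just above early control 3 at Tmem33 (2.85 against 2.67 CPM). Tlcd2, whose member stands beside Mir22, had 8.10, 6.59 and 5.33 CPM against 11.3, 11.6 and 10.1.

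Peaks next to members showed a small difference of the same sign. Of the nearest peaks within 5 kb that lay outside the inhibitor limits, 682 in number, the median inhibitor ratio was 1.11, and 69.1% lay above 1. Over all 200430 peaks outside those limits the median was 1.02 and the share 54.4%. Neighbours of the other peaks within the inhibitor limits had a median of 1.1, so this was not particular to members. For early Fra2 the neighbours of members had a median ratio of 0.938 and those of the other peaks 1.06.

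In the deposited peak lists, 1 per library, nearly all members had a called peak with the inhibitor (789, 790 and 789 of 790). The share was 84.8%, 57.6% and 10.1% in early controls 1 to 3, and the share of all peaks with a called peak fell in the same order, 81.1%, 67.9% and 33.9%, as did depth. A called peak in all 3 inhibitor libraries and no early control stood at 71 members (8.99%), against 8.14% of the other peaks within the inhibitor limits, 4.62% of all peaks and 0.562% of peaks at the level limit. These lists come from the reads that chose the members.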

How the data were processed

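Omni-ATAC-seq was performed on 15 libraries of MEFs, 3 in each of 5 groups taken from the sample titles. The authors deposited raw counts in consensus peaks for all libraries, not normalized, and a peak list per library. The lists hold a fold enrichment, a ratio the authors' caller gave each peak, and only their positions were used. The submitters' processing notes name MACS2 and the build mm10. The sources used here do not give the aligner, the handling of duplicates or how consensus peaks were made. Depth was 6.75 M to 25.3 M reads in peaks, and 3 counts correspond to 0.119 to 0.444 CPM, which covers counting error only.

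Counts of all 15 libraries were fitted together in edgeR 4.0.16 (R 4.3.3) by the quasi-likelihood F-test with TMM scaling (factors 0.959 to 1.06). The default filter removed 18 peaks and left 206349, and p-values were adjusted by Benjamini and Hochberg over these and called under 0.05. CPM uses column totals without TMM. Standard errors of log2 fold changes were derived from the F statistic. The fit was tested on simulated counts.

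Each peak took the closest protein-coding gene (RefSeq, GRCm38.p6) within 100 kb of its centre, and gene starts came from the listed promoter windows. Whether a peak acts on that gene is unknown. A library's called peak was matched to a consensus peak by an overlap of at least 100 bases. The members and the 22 gene lists (804 genes, 786 with a peak) were chosen with earlier results of these data known.

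Named peaks followed a rule. They were the 12 largest ratios with separate libraries, the 8 highest levels, the 8 largest ratios at gene starts, the leading member of each list, the leading member of the 8 genes with most members, and the peaks nearest the ratio limit. Of these, 1 is not reported here. Further members of the loci, lists and sequences described, and Ptdss1, were named after their values were seen. Alternatives were DESeq2 1.42.0, no filter, other scalings (TMM from gene starts, cyclic loess from limma 3.58.1), the 2 groups alone, a replicate block and leaving out libraries.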

Additional observations from a re-analysis of the deposited data

How the results depend on the processing

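The number of peaks that met the rule was 790 as reported, 607 with TMM-scaled CPM and 724 with the mean of library CPM (440 and 483 of them members), and 673 to 1156 with 1 library left out. It moved to 21 with a ratio limit of 2, to 417 with Fra2 limits of 1 and to 1316 with an inhibitor CPM of at least 2. Members called higher against early control numbered 50, and 29 with DESeq2 (which gave 411 members no adjusted p), 322 with TMM factors from gene starts, 104 with cyclic loess, 1 with only the 2 groups in the fit, and 2 to 166 with 1 library left out. TMM factors from gene starts shifted all peaks by a median of 0.16 on the log2 scale and took the members from 0.62 to 0.78, so that members differed from all peaks by about as much as reported. Against late control that shift was 0.11. Against late control the count was 193, 330 with only the 2 groups in the fit and 73 to 148 with 1 library left out. Between late and early control it was 14, 25 with TMM factors from gene starts, 2 with only the 2 groups in the fit and 4 to 19 with 1 library left out. With the replicate block, the counts were 60, 198 and 14. The cause of these shifts was not tested, beyond fewer libraries in the fit where the setting names it. The median ratio of left-out inhibitor libraries, 1.44, came to 1.23 when an early control library was left out with it, a setting chosen after seeing the data. Members nearest a listed gene numbered 37, and 30 within 10 kb.

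The replicate numbers gave no sign of pairing between inhibitor and early control samples. Same-numbered libraries deviated from their group means with correlations of 0.029, −0.011 and −0.012, and only inhibitor library 1 correlated best with its own number. With 3 libraries in a group, such correlations cannot exclude a pairing. No log2 fold change of a named peak against early control turned its sign in 612 comparisons with an alternative. Of these, 69 lost an adjusted p under 0.05, 44 gained it and 499 kept their side of it. The named peaks were members or lay at the ratio limit, and the alternatives reuse the same counts. Their sign was thus nearly set by the rule, and nothing is read from its staying the same. The Cdkn1a peak beyond the gene end kept a called difference in all 12 alternatives (log2 fold change 1.08 to 1.27). Depth limits what early control 3 can show at a single peak, since 3 counts are 0.444 CPM there. Whether depth had a part in its medians and sums over many peaks was not tested.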
